A study of Mus musculus with 12 samples.

Results

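Integrins are the cell-surface receptors that tie kidney cells to the matrix around them. The 10 genes described here encode the subunits of the epithelial and matrix-binding receptors: the alpha subunits Itgav, Itga2, Itga3, Itga5 and Itga6 and the beta subunits Itgb1, Itgb3, Itgb5, Itgb6 and Itgb8. They were chosen by name, with earlier results of these data known, and all 10 were found among the 55471 genes of the deposited table and passed the filter on low values. RNA was sequenced from left kidneys of C57/BL6 mice aged 8 to 12 weeks, either wild type or knockout for Sprr2f, a small proline-rich protein gene. Unilateral ureteral obstruction (UUO) was made with a clamp on the left ureter, and kidneys were taken at day 0 (2 wild-type and 4 knockout libraries) or day 5 (3 wild-type and 3 knockout libraries). All 12 samples, day 0 included, are labelled UUO, and the labels used here do not say whether day 0 kidneys had surgery, how the knockout allele was made or which cells it affects. They give the libraries as separate samples of a group and say nothing of litters or separate animals, so the p-values below measure only the spread between these samples.

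An integrin is a pair of 1 alpha and 1 beta chain, and the pair sets which matrix protein is bound. Itgb1 is the common partner of Itga2 (a collagen receptor), of Itga3 and Itga6 (laminin receptors of the tubular and glomerular basement membrane) and of Itga5 (the classical fibronectin receptor). Itgav pairs with each of the 5 beta subunits here and binds ligands that carry the RGD motif, such as fibronectin, vitronectin and osteopontin. With Itgb6 or Itgb8 it also binds the latent form of transforming growth factor beta (TGF-beta), a main fibrosis signal, and releases or exposes the active factor. Inside the cell, talin and kindlin bind the beta tail to switch the receptor on and link it to actin. The obstructed kidney is a standard model of tubule injury, inflammation and scarring.

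Libraries held 16567256 to 19398882 reads, so that 1 read was worth 0.0515 to 0.0604 CPM (counts per 1000000 reads). Sprr2f stood at 26.9 to 58.8 CPM in wild type at day 5 and at 0 to 4.07 CPM in knockout at day 5, while at day 0 it was at or under 0.262 CPM in both genotypes, where it cannot check the labels. Y-linked transcripts were found in 7 of the 12 libraries and Xist in the other 5, although the title speaks of female animals. The 7 were 1 of 2 wild-type libraries and all 4 knockout libraries at day 0, and 1 of 3 libraries of each genotype at day 5. At day 0 genotype and this pattern are therefore partly confounded, and within the knockout so are day and pattern. Levels below are CPM divided by a TMM factor (a between-library scaling), called scaled CPM. Without it the all-gene median was 0.37 (wild type) and 0.39 (knockout) log2 units further up, and the share of called genes that were higher at day 5 went from 52.1% to 81.1% and from 53.7% to 82.3%.

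Markers of several cell types differed between the days. Summed proximal tubule markers spanned 14050 to 14450 scaled CPM in wild-type day 0 libraries and 3198 to 3893 in wild-type day 5 libraries, and 14880 to 16430 against 3543 to 5489 in knockout. All 11 injured-tubule markers passed the test as higher in both genotypes, as did 10 (wild type) and 9 (knockout) of 10 fibroblast markers and 9 and 8 of 10 leukocyte markers. Of 10 endothelial markers, 1 was higher and 1 lower in each genotype. Over all tested genes, 24.5% passed as higher and 22.6% as lower in wild type, and 29.4% and 25.4% in knockout. The mitochondrial share of reads was 8.31 to 9.26% in day 0 libraries and 3.89 to 4.34% in day 5 ones. In bulk RNA, fewer cells of a type and less RNA per cell cannot be told apart, and the part of these shifts in the integrin results was not tested.

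Promoters are shown for 2 of the 3 members with the largest log2 fold changes (Itga2, Itgb3 and Itga5), those that the sequence table holds. RefSeq's table for GRCm38.p6 holds promoters (250 bases before to 50 after the transcript start) for 8 of the 10 members; Itgb3 and Itga6 had no entry. Itga2 (chr13:114932051-114932350, minus strand) and Itga5 (chr15:103366742-103367041, minus strand) are printed 5′ to 3′ on the gene's strand, with matches to the GC box (GGGCGG or its reverse complement) in capitals.
Itga2: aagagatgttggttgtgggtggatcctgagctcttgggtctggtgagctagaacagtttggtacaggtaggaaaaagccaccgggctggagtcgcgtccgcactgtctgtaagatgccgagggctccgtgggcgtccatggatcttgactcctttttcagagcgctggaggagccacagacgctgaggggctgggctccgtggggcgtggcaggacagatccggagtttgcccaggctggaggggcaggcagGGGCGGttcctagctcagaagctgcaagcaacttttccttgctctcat
Itga5: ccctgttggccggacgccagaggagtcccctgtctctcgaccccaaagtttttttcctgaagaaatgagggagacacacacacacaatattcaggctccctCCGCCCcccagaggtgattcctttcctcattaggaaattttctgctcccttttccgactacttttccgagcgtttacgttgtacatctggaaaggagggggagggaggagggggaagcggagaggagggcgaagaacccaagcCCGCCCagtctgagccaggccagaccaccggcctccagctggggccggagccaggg
On both strands, the GC box letters were present in 6 of the 8 member promoters (Itgav, Itgb1, Itgb5, Itga2, Itga3 and Itga5) and in 35.7% of all 32851 promoters in the table. The TEAD motif GGAATG was present in 1 (Itgb1), against 14.7% of all, and the AP-1 motif TGANTCA in 0, against 7.81%. The motifs do not overlap each other in these windows, and a match here is only a match of letters.

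The first question was how receptor transcripts differ between day 0 and day 5 of obstruction in each genotype. By limma over 18093 tested genes, 8 of the 10 members were higher and 0 lower in wild type, where 47.1% of all tested genes were called, 24.5% higher and 22.6% lower. In knockout 8 were again higher and 0 lower, against 29.4% and 25.4% of all tested genes (54.8% called in all). The same 8 genes were called in both: Itga2, Itgb3, Itga5, Itga3, Itgav, Itgb1, Itgb5 and Itgb6. Itgb8 was the 1 member lower in wild type at an unadjusted p under 0.05 and was called by DESeq2, which called 23.9% of all genes lower, but not by edgeR; in knockout 0 were lower by any of these. The members' median log2 fold change was 0.87 in wild type and 0.90 in knockout, beside 0.04 and 0.07 over all tested genes. Libraries of the 2 days did not overlap for 8 members in wild type and 8 in knockout, all higher at day 5, where 34.4% and 29.5% of tested genes were higher without overlap and 30.7% and 25.6% lower.

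**Figure D1:**
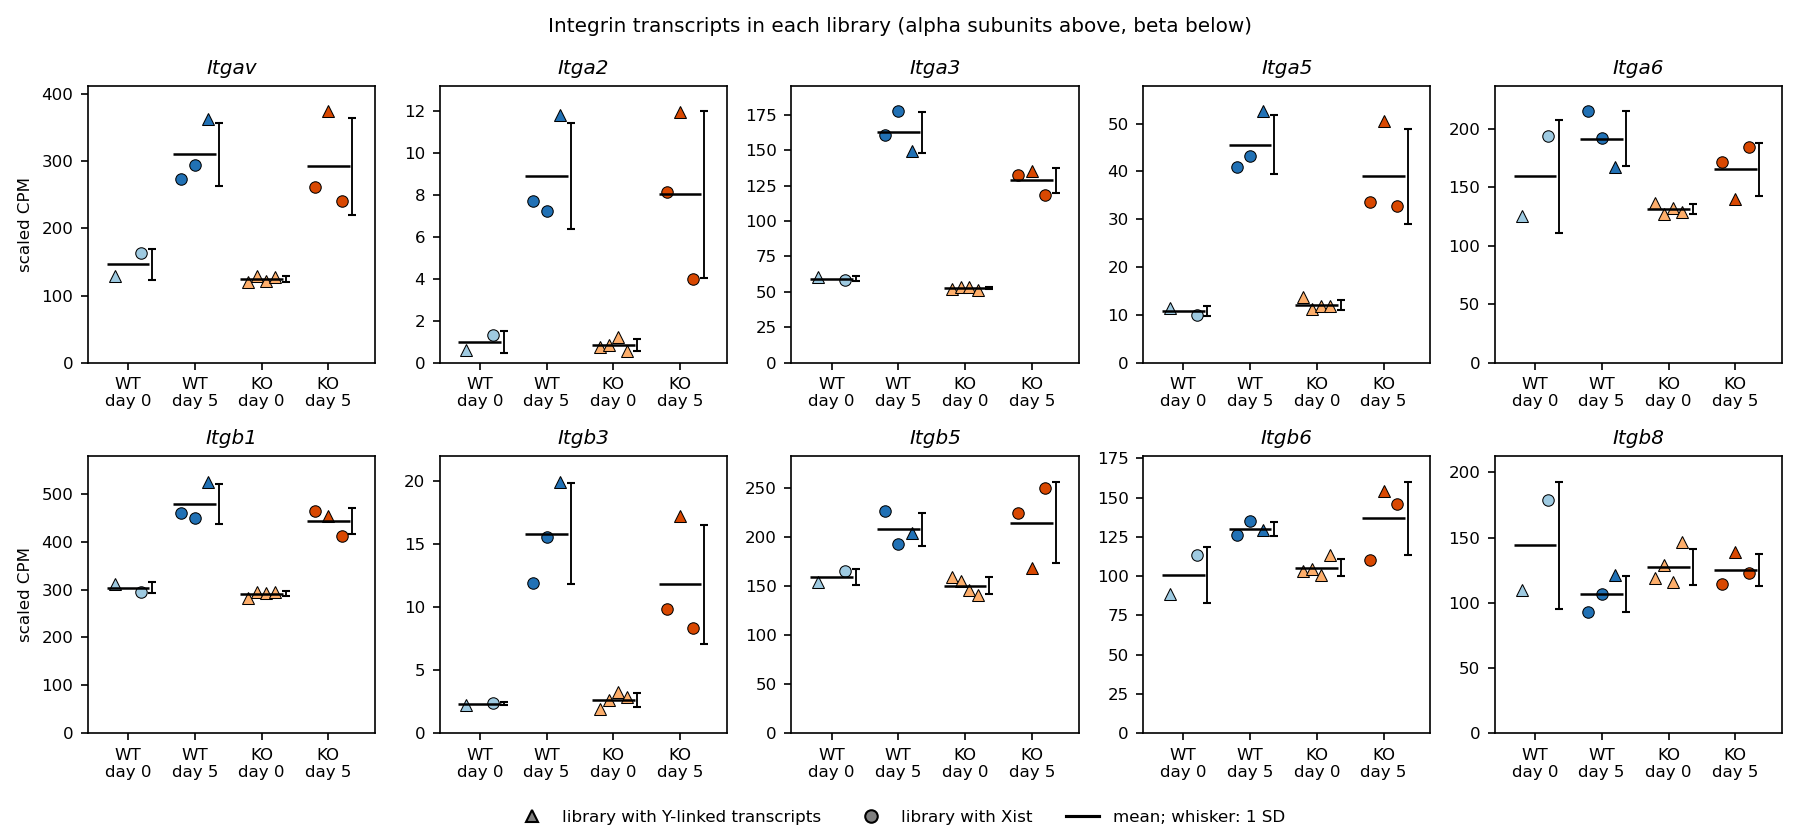
Scaled CPM of each member in each library (points; triangles hold Y-linked transcripts, circles Xist), with group means and 1 SD whiskers, by genotype and day. For Itga2, Itga3, Itga5, Itgav, Itgb1 and Itgb3 all day 5 points lie above all day 0 points of the same genotype, while those of Itgb8 overlap.

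Itga2 encodes the alpha chain of a collagen receptor of epithelium and platelets (ENSMUSG00000015533, GRCm38 chromosome 13, 114833081 to 114932100, minus strand). Its level was 0.605 and 1.33 scaled CPM in the wild-type day 0 libraries and 7.70, 7.21 and 11.8 at day 5. In knockout it was 0.742, 0.835, 1.23 and 0.536 at day 0 and 8.11, 11.9 and 3.99 at day 5. Every day 5 library was above every day 0 library, although day 0 rested on only 9 to 22 reads per library. The log2 fold change was 2.69 ± 0.39 (SE, limma adjusted p = 0.0001005) in wild type and 2.58 ± 0.33 (adjusted p = 2.585e-05) in knockout, a 6.46-fold and 5.97-fold difference. Folds are on the log2(scaled CPM + 0.5) scale, which understates the change of genes as low as Itga2 and Itgb3. Of 9 platelet markers only 4 passed the filter, and in wild type Pf4 and Ppbp were called higher and Itga2b and Gp1ba lower, while in knockout Gp1ba was not called. The sum of all 9 ranged from 16.6 to 19.9 scaled CPM in day 0 libraries and from 22.6 to 41.3 in day 5 ones (Gp1bb had 0 in all).

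Itga5, the fibronectin receptor chain (ENSMUSG00000000555, chromosome 15, 103344286 to 103366763, minus strand), stood at 11.4 and 9.97 scaled CPM in wild type at day 0 and at 40.9, 43.3 and 52.6 at day 5. In knockout it stood at 13.7, 11.2, 11.8 and 11.7 at day 0 and at 33.6, 50.5 and 32.8 at day 5. The groups were far apart, and the highest library of each day 5 group held Y-linked transcripts. Itga5 rose 4.10-fold in wild type (log2 2.04 ± 0.18, limma adjusted p = 1.73e-06) and 3.08-fold in knockout (1.62 ± 0.15, adjusted p = 1.661e-06).

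Itga3, the laminin receptor chain of tubule and podocyte (ENSMUSG00000001507, chromosome 11, 95044474 to 95076801, minus strand), rose in both genotypes. It read 60.3 and 58.1 scaled CPM in wild type at day 0 and 160.7, 178 and 149 at day 5. Knockout libraries read 52.2, 53.3, 53.6 and 51.4 at day 0 and 132, 135 and 118 at day 5. Day 0 libraries lay close together within each genotype, with an SD of 1.60 (n = 2) and 1.001 (n = 4), far from any day 5 library. The rise was 2.72-fold in wild type (log2 1.45 ± 0.09, limma adjusted p = 1.7e-07) and 2.43-fold in knockout (1.28 ± 0.07, adjusted p = 6.284e-08). Summed podocyte markers were 433 to 630 scaled CPM in wild type at day 0 and 332 to 463 at day 5, and 392 to 407 and 294 to 436 in knockout.

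Itgav, the shared alpha chain of the RGD receptors (ENSMUSG00000027087, chromosome 2, 83724397 to 83806916, plus strand), held 129.8 and 163 scaled CPM in wild type at day 0 and 274, 294.5 and 364 at day 5. In knockout it held 120.3, 128, 122 and 127 at day 0 and 262.5, 375 and 240.3 at day 5. All day 5 libraries were above all day 0 libraries, and again 1 library in each day 5 group stood above the other two. The change was 2.12-fold in wild type (log2 1.08 ± 0.17, limma adjusted p = 0.000218) and 2.30-fold in knockout (1.203 ± 0.144, adjusted p = 1.635e-05). Its exons share 634 bases with an antisense gene, Gm13684, which held 0 to 12 reads per library.

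Itga6, the laminin receptor chain that also pairs with Itgb4 in hemidesmosomes (ENSMUSG00000027111, chromosome 2, 71745616 to 71858416, plus strand), did not pass the test in either genotype. Wild-type values were 125 and 193.5 scaled CPM at day 0 and 215, 192 and 168 at day 5, which overlap. Knockout values were 136, 127, 132 and 129 at day 0 and 172, 139.9 and 184 at day 5, which do not overlap. The log2 fold change was 0.29 ± 0.17 in wild type (limma adjusted p = 0.1701, 95% interval −0.07 to 0.65) and 0.32 ± 0.14 in knockout (adjusted p = 0.06576, 0.02 to 0.62). The wild-type value rests on which day 0 library is kept: it was −0.03 without replicate 1 and 0.60 without replicate 2 (adjusted p = 0.007916). In knockout, Itga6 was called higher under 6 alternatives: without day 5 replicate 2 (0.44, adjusted p = 0.02235), without either wild-type day 0 library (0.30 each, adjusted p = 0.0249 and 0.02484), with the compared groups alone (0.32, adjusted p = 0.01376), with upper-quartile factors (0.36, adjusted p = 0.03951) and with library size only (0.77, adjusted p = 0.0005714). In wild type, library size only also called it (0.71, adjusted p = 0.004288).

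Among the beta subunits, Itgb3 changed most. It is the partner of Itgav in the vitronectin receptor and of Itga2b on platelets (ENSMUSG00000020689, chromosome 11, 104608000 to 104670476, plus strand). Its level was 2.24 and 2.42 scaled CPM in wild type at day 0 and 11.9, 15.6 and 19.9 at day 5. In knockout it was 1.92, 2.58, 3.24 and 2.86 at day 0 and 9.83, 17.2 and 8.31 at day 5. The lowest day 5 library, at 8.31, was above the highest day 0 library, at 3.24. The rise was 5.65-fold in wild type (log2 2.50 ± 0.29, limma adjusted p = 1.858e-05) and 3.77-fold in knockout (1.92 ± 0.25, adjusted p = 2.929e-05). Itga2b, the platelet partner, was lower at day 5, with a log2 fold change of −0.44 ± 0.16 (adjusted p = 0.04193) in wild type and −0.35 ± 0.14 in knockout (p after adjustment 0.04386, libraries overlapping).

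Itgb1, the common partner of most alpha chains (ENSMUSG00000025809, chromosome 8, 128685654 to 128733200, plus strand), was the most abundant member per kilobase in every group. Wild-type libraries held 312 and 295 scaled CPM at day 0 and 461, 449 and 525.7 at day 5. Knockout libraries held 283, 294, 292 and 296 at day 0 and 465, 454 and 412 at day 5. The groups were cleanly separated but the change was smaller than for its alpha partners Itga2, Itga3 and Itga5, whose 95% intervals lie above that of Itgb1 in both genotypes. Itgb1 rose 1.57-fold in wild type (log2 0.65 ± 0.09, limma adjusted p = 8.306e-05, interval 0.45 to 0.85) and 1.52-fold in knockout (0.60 ± 0.08, adjusted p = 2.808e-05, interval 0.44 to 0.77).

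Itgb5, a vitronectin-binding partner of Itgav (ENSMUSG00000022817, chromosome 16, 33829665 to 33949338, plus strand), stood at 154 and 165 scaled CPM in wild type at day 0 and 226, 193 and 204 at day 5. In knockout it stood at 159.6, 155, 146 and 140.5 at day 0 and 225, 169 and 250.4 at day 5. The groups did not overlap, but the gap was narrow: the highest knockout day 0 library was 159.6 and the lowest day 5 library 169. The log2 fold change was 0.38 ± 0.14 in wild type (limma adjusted p = 0.03929) and 0.49 ± 0.12 in knockout (adjusted p = 0.002999). The wild-type call was lost when any 1 of 4 wild-type libraries was left out (both day 0 libraries and day 5 replicates 1 and 3, adjusted p from 0.06386 to 0.1749).

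Itgb6, the epithelial partner of Itgav that activates latent TGF-beta (ENSMUSG00000026971, chromosome 2, 60598292 to 60722643, minus strand), read 88.3 and 113.5 scaled CPM in wild type at day 0 and 126, 135 and 129 at day 5. Knockout libraries read 103, 104.6, 100.5 and 113.5 at day 0 and 110.3, 154 and 146 at day 5. In knockout the lowest day 5 library was below the highest day 0 library. The log2 fold change was 0.38 ± 0.14 in wild type (limma adjusted p = 0.03856) and 0.36 ± 0.11 in knockout (adjusted p = 0.01725). The wild-type call is fragile: it was 0.19 (adjusted p = 0.3836) without day 0 replicate 1, and it was also lost without any 1 of the wild-type day 5 libraries (adjusted p from 0.05954 to 0.09216) or of knockout day 0 replicates 1 to 3 (0.05396 to 0.05568), with DESeq2 (0.05814) and with RLE scaling (0.0554). The knockout call was lost without any 1 of day 0 replicates 2 and 3 and day 5 replicates 2 and 3 (adjusted p from 0.05132 to 0.07579).

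Itgb8, the other TGF-beta-activating partner (ENSMUSG00000025321, chromosome 12, 119158022 to 119238802, minus strand), did not pass the test in either genotype. It read 109.8 and 179 scaled CPM in wild type at day 0 and 92.8, 106.5 and 121 at day 5. In knockout it read 119, 129, 116 and 147 at day 0 and 114.5, 139 and 122.5 at day 5. The 2 wild-type day 0 libraries were further apart than the day 5 libraries, and the groups overlapped in both genotypes. The log2 fold change was −0.40 ± 0.18 in wild type (limma adjusted p = 0.08737, interval −0.79 to −0.01) and −0.03 ± 0.15 in knockout (adjusted p = 0.9007, −0.35 to 0.30), and it was 0.02 and 0.43 when libraries were scaled by size only. Without wild-type day 0 replicate 1 it was −0.75 (adjusted p = 0.004078), and without replicate 2 it was −0.05. DESeq2 on the recovered reads called it lower in wild type (−0.45, adjusted p = 0.04768).

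**Figure D2:**
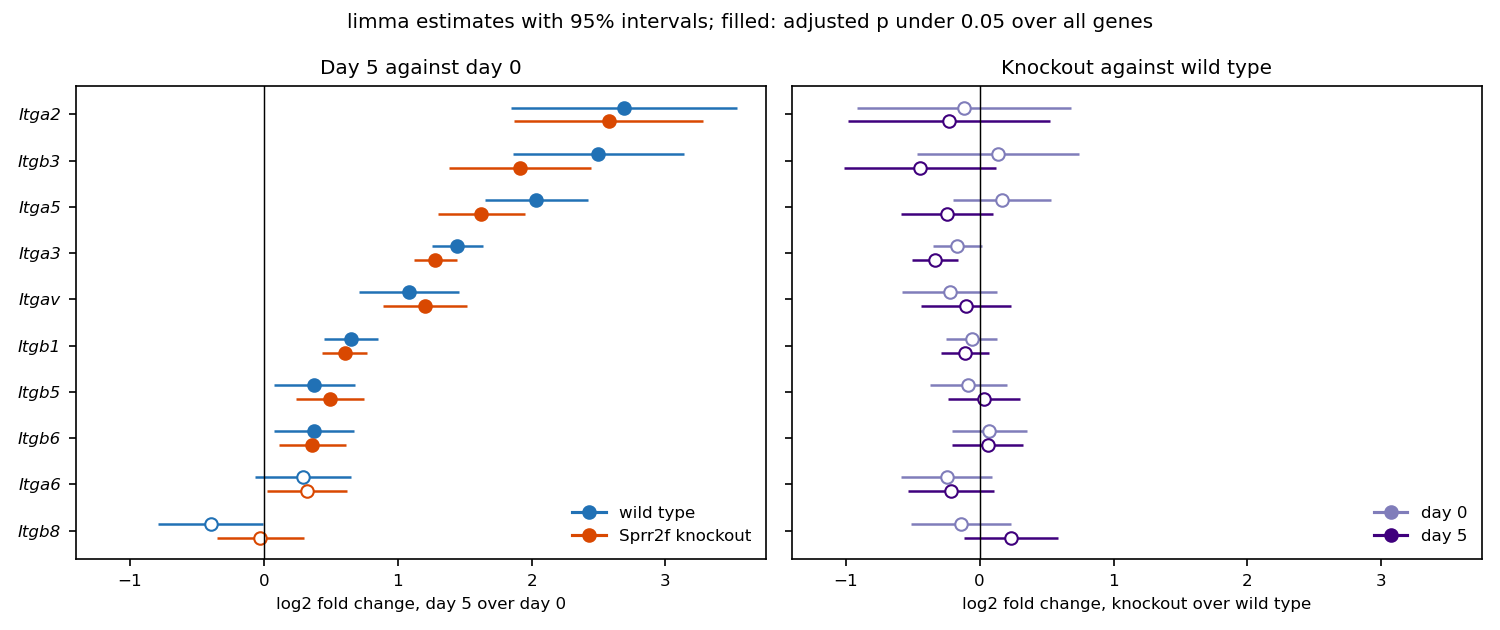
Log2 fold changes with 95% intervals (limma; filled points have an adjusted p under 0.05 over all genes), for day 5 over day 0 in each genotype (left) and for knockout over wild type at each day (right). The obstruction estimates run from 2.69 for Itga2 to −0.40 for Itgb8 in wild type (0.02 for Itgb8 with library size scaling only), and no genotype estimate is filled.

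The Y-linked or Xist pattern of a library moved with part of these values. Within groups, 7.94% of all tested genes differed between the patterns, and 2 of the 10 members did. Itga6 was lower in libraries with Y-linked transcripts (log2 difference −0.40 ± 0.07, limma adjusted p = 0.005056) and Itga5 higher (0.39 ± 0.10, adjusted p = 0.02693). The day 5 libraries with Y-linked transcripts (wild-type replicate 3 and knockout replicate 2) also held the highest injured-tubule marker sums, 3873 scaled CPM against 2537 and 2700 in wild type and 4144 against 1687 and 1850 in knockout, so pattern and marker level cannot be told apart there. With the pattern as a term, the same 8 members were called higher in each genotype, and the knockout value of Itga6 was 0.06 (adjusted p = 0.6081).

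Within 1 pattern there are too few libraries for a test, but day 5 minus day 0 could be set side by side. Log2 differences for libraries with Y-linked transcripts were 3.47 for Itga2 in wild type and 3.24 in knockout, beside 2.12 in the wild-type Xist libraries. Itgb3 gave 2.90, 2.51 and 2.28 in the same order, Itga5 2.15, 2.02 and 2.02, and Itga3 1.30, 1.35 and 1.53. Itgav gave 1.48, 1.59 and 0.80 and Itgb1 0.75, 0.64 and 0.62. Those of Itgb5 were 0.41, 0.17 and 0.34 and those of Itgb6 0.55, 0.55 and 0.20. Itgb8 turned direction between patterns, with 0.14, 0.13 and −0.84. Itga6 gave 0.42, 0.09 and 0.07.

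The second question was whether the knockout changed receptor expression, before or during obstruction. At day 0, 0 of 10 members were called between genotypes by limma, edgeR or DESeq2, while limma called 0.0166% of all tested genes (3 genes). At an unadjusted limma p under 0.05 there were 0 members, beside 15% of all tested genes. The members' log2 differences, knockout over wild type, ran from −0.25 (Itga6) to 0.17 (Itga5) with a median of −0.10. Itgav and Itga3 were lower in all knockout libraries without overlap, 2 of 10 members, where 12.4% of tested genes were lower and 12.9% higher without overlap. For Itgav, wild type held 146 ± 23.5 scaled CPM (SD, n = 2) and knockout 124.5 ± 3.91 (n = 4). All 4 knockout day 0 libraries held Y-linked transcripts, so only the wild-type library of that pattern is matched to them, and against it the log2 difference was −0.06 for Itgav and −0.20 for Itga3.

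At day 5, 0 of 10 members were called by limma or edgeR and 1 by DESeq2, where limma called 0% of all tested genes and DESeq2 called 0.0166% (3 genes) lower. The median log2 difference was −0.16, and 1 member, Itga3, had an unadjusted p under 0.05, as did 5.67% of all tested genes. Itga3 was lower in all 3 knockout libraries (118 to 135 scaled CPM) than in all 3 wild-type libraries (149 to 178), where 4.21% of tested genes were lower and 5.72% higher without overlap. Its means were 163 ± 14.2 (SD, n = 3) and 129 ± 9.10 (SD, n = 3), a log2 difference of −0.34 ± 0.08 with a 95% interval from −0.51 to −0.16. The limma p was 0.00106 before and 0.6048 after adjustment over all genes, so the difference failed the correction. DESeq2 on the recovered reads gave −0.33 with an adjusted p of 0.02175, the only alternative to call it, while adjusted p over the others ran from 0.122 to 0.9999. The difference was −0.14 between the libraries with Y-linked transcripts and −0.43 between those with Xist, and podocyte marker sums overlapped between genotypes (332 to 463 in wild type and 294 to 436 in knockout).

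Itgb3 had the widest day 5 difference, −0.45, with an interval from −1.02 to 0.12 that includes 0. For Itgb6 (interval −0.21 to 0.33) and Itgb5 (−0.24 to 0.30), changes of more than about 0.33 log2 units in either direction lie outside the interval. The interaction asks whether the response to obstruction differed between genotypes. It was called for 0 of 10 members by limma, edgeR or DESeq2, where limma called 0.00553% of tested genes (1 gene). No member had an unadjusted limma p under 0.05 for the interaction, beside 7.59% of all tested genes. Interaction estimates ran from −0.58 (Itgb3) to 0.37 (Itgb8). Intervals of this width (−1.41 to 0.25 for Itgb3) leave room for sizeable differences in the lower-expressed members.

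Levels per kilobase of exon put the 10 members in order. In wild type at day 0, Itgb1 led with 74.4 scaled CPM per kb, followed by Itgb5 with 44.9, with no overlap between neighbours. Itga6 (17.7), Itgb6 (14.2), Itgav (13.6), Itgb8 (13.0) and Itga3 (10.4) came next, and each of these overlapped with its neighbour. Itga5 (2.17), Itgb3 (0.395) and Itga2 (0.136) closed the order, each below the last without overlap. At day 5 in wild type Itgb1 (117 scaled CPM per kb) and Itgb5 (58.5) still led, and Itgav (28.9) and Itga3 (28.5), which overlapped, now stood above Itga6 (21.2). Knockout kidneys at day 5 gave the same first 4 (108.7, 60.4, 27.2 and 22.5). Itga2 and Itgb3 remained the 2 lowest in all 4 groups. The length used was the union of exons, which for Itga6 is 9025 bases against 4310 for its longest transcript. For Itga3 these lengths are 5710 and 4861 bases, and for Itgav 10744 and 7054. The places of Itga6, Itga3 and Itgav therefore depend on the length used, and the order was not repeated with the longest transcript.

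The makeup of the member transcripts was expressed as each gene's share of the 5 alpha or of the 5 beta transcripts per kb. No scaling between libraries touches these shares. Subunits outside the 10 members do not enter them, so they are not the makeup of all integrins. Among those left out, Itga1 had means of 121.4 (day 0) and 170.7 (day 5) scaled CPM in wild type and 106.5 and 183.1 in knockout. Shares within a set sum to 100%, so they cannot move independently. The percentages depend on the length used, here the union of exons (9025 bases for Itga6, whose longest transcript has 4310). With the other lengths the Itga6 share kept its direction and call, but its level in percent differs. Itga6 fell from the largest alpha share, 39.7 ± 5.78% (SD, n = 2) in wild type and 38.3 ± 0.89% (n = 4) in knockout at day 0, to 23.9 ± 3.49% (n = 3) and 24.1 ± 5.55% (n = 3) at day 5. Every day 5 library, 18.0 to 28.9%, was below every day 0 library, 35.6 to 43.8%. The difference averaged over genotypes was −15.02 percentage points (exact two-sided permutation of day within genotype over 350 arrangements, p = 0.002857, the smallest this design allows, adjusted p = 0.003571 over the 5 alpha shares). Itga6 transcripts themselves were not called lower: the fold change above was 0.29 and 0.32 on the log2 scale.

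Shares of Itga3, Itga5 and Itga2 rose as that of Itga6 fell. Itga3 went from 24.0 to 31.98% in wild type and from 24.3 to 29.3% in knockout, Itga5 from 5.04 to 10.4% and from 6.46 to 10.1%, and Itga2 from 0.299 to 1.40% and from 0.309 to 1.42%. For each of the 3 the exact permutation test gave an adjusted p of 0.003571. The Itgav share was 31.0 and 32.4% in wild type and 30.6 and 34.995% in knockout (exact permutation adjusted p = 0.2000). It passed the test with other lengths: 5.52 points with the longest transcript as length and 5.56 with no division by length (adjusted p = 0.01143 for each), against 2.91 points here.

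In the beta set, Itgb8 fell from 8.82 ± 2.61% (SD, n = 2) to 4.68 ± 0.50% (n = 3) in wild type and from 8.20 ± 0.81% (n = 4) to 5.63 ± 0.70% (n = 3) in knockout. All day 5 libraries, 4.10 to 6.41%, were below all day 0 libraries, 6.97 to 10.7% (exact permutation adjusted p = 0.007143). Itgb3 rose from 0.269 to 1.29% and from 0.320 to 0.997% (adjusted p = 0.007143, same exact permutation test). Itgb1 rose from 50.7 to 56.8% in wild type and from 50.8 to 53.9% in knockout (exact permutation adjusted p = 0.03333), a call lost in 10 of the 12 fits that left out 1 library. Itgb6 (9.63 and 8.89%, then 10.5 and 9.56%) and Itgb5 (30.5 and 28.4%, then 30.1 and 29.9%) did not pass (exact permutation adjusted p = 0.2393 and 0.4743).

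Split by Y-linked or Xist pattern, the shares of Itga6 differed between day 5 and day 0 by −15.2 points in wild-type libraries with Y-linked transcripts, −18.2 in wild-type Xist libraries and −20.3 in knockout libraries with Y-linked transcripts. Itgb8 shares differed by −1.97, −6.16 and −1.80 points in the same order. Those of Itga5 gave 5.77, 5.55 and 5.44 points and those of Itga3 1.61, 12.8 and 3.21. Itgav turned direction, with 6.17, −0.98 and 10.02 points.

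**Figure D3:**
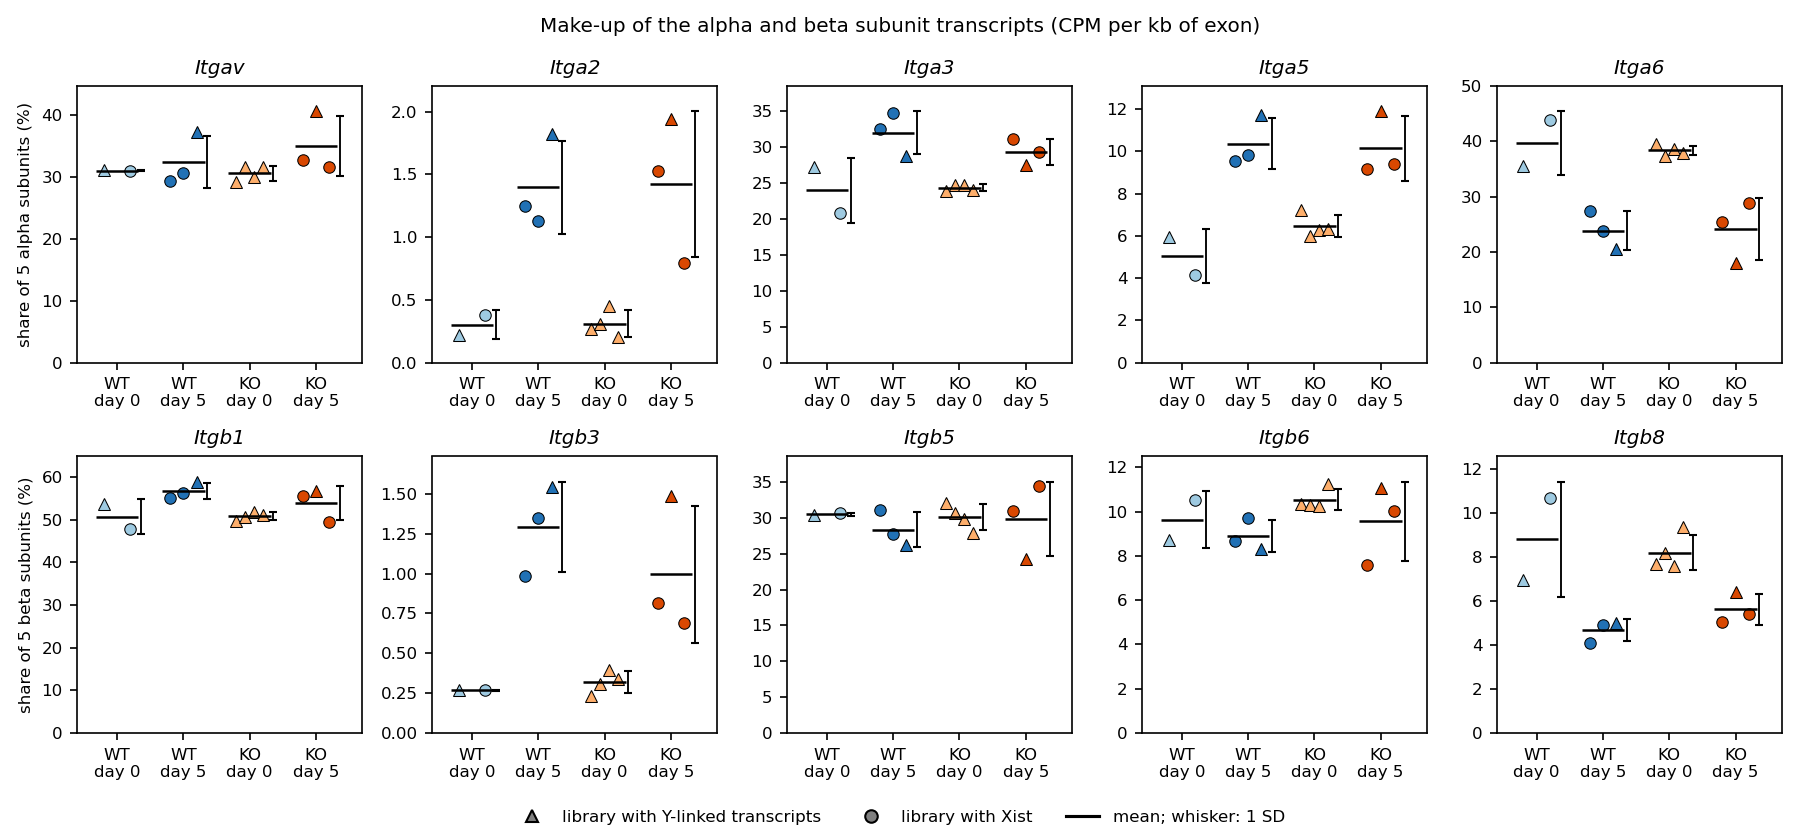
Share of each alpha gene in the 5 alpha transcripts (top) and of each beta gene in the 5 beta transcripts (bottom), in percent of CPM per kb of exon, by library, with group means and 1 SD whiskers (triangles hold Y-linked transcripts, circles Xist). Itga6 lies at 35.6 to 43.8% in day 0 libraries and 18.0 to 28.9% in day 5 ones, and the means of Itga3, Itga5 and Itga2 are higher at day 5.

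The genes nearest to each called member in pattern over the 12 libraries were listed by the root mean square difference of centred log2 values among 12932 genes, as a description. Itgb1 had the closest neighbours, Srgap2 (0.06) and Nedd4 (0.06). Itgb5 was nearest to Pcolce (0.08) and Zfp532 (0.09), Itga5 to Tubb5 (0.09) and Shisa4 (0.11), and Itgb6 to Tspan14 (0.10) and Zkscan6 (0.11). Itgav was nearest to Map4 (0.10) and Tmem43 (0.10), and Itga3 to Ddah2 (0.12) and the claudin gene Cldn7 (0.12). The 2 low-level members had looser matches, Itgb3 with Pdpn (0.16) and Mapk11 (0.18) and Itga2 with Scara3 (0.17) and Irf4 (0.25).

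The RGD ligands of these receptors had a larger median change than the receptors. Of 18 tested RGD-containing and related ligands, 13 rose and 0 fell in wild type and 14 rose and 0 fell in knockout, with median log2 fold changes of 1.85 and 1.53. For this and the lists that follow, the shares over all tested genes were 24.5% higher and 22.6% lower in wild type. In knockout these shares were 29.4% and 25.4%. Spp1 (osteopontin) rose by 3.72 ± 0.22 (SE) and 4.202 ± 0.183 log2 units, Fn1 (fibronectin, the Itga5 ligand) by 2.87 ± 0.19 and 3.14 ± 0.16, Tnc (tenascin C) by 2.83 ± 0.24 and 2.50 ± 0.20, and Fbn1 (fibrillin) by 2.48 ± 0.18 and 2.31 ± 0.15 in wild type and knockout. Vtn (vitronectin) was not called in either genotype, with −0.17 ± 0.42 and 0.42 ± 0.35 (limma adjusted p = 0.7723 and 0.335). Its group means were low, from 0.76 to 1.21 scaled CPM.

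Collagen and laminin ligands were more mixed. Among 20 tested, 13 rose and 4 fell in wild type and 14 rose and 3 fell in knockout, with medians of 0.85 and 0.97. The interstitial collagens that bind Itga2 receptors rose, Col3a1 by 3.08 ± 0.24 and 3.21 ± 0.20 log2 units, Col1a1 by 3.43 ± 0.35 and 3.40 ± 0.30 and Col1a2 by 2.87 ± 0.25 and 2.96 ± 0.21. Col1a1, Col1a2 and Col3a1 are also among the fibroblast markers, whose sum ran from 399 to 622 scaled CPM in day 0 libraries and from 2603 to 4487 in day 5 libraries.

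Other integrin subunits served as a comparison within the family. Of 16 tested, 12 rose and 1 fell in wild type (median 1.17) and 11 rose and 1 fell in knockout (median 0.92). The leukocyte subunits were among them, Itgam rising by 3.73 ± 0.34 and 3.76 ± 0.29 log2 units, Itgax by 2.43 ± 0.24 and 2.08 ± 0.20 and their partner Itgb2 by 2.10 ± 0.16 and 2.29 ± 0.14. Summed leukocyte markers, which include Itgam and Itgb2, were 144 to 176 scaled CPM at day 0 and 572 to 838 at day 5. Itgb4, the hemidesmosome partner of Itga6, rose by 1.52 ± 0.19 and 1.43 ± 0.16 (limma adjusted p = 2.582e-05 and 7.272e-06), in kidneys where Itga6 itself did not pass the test.

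The hemidesmosome list, which anchors epithelium through Itga6 and Itgb4, had 6 of 8 genes higher and 1 lower in each genotype, with medians of 1.42 and 1.36. Col17a1, its transmembrane collagen, rose by 4.22 ± 0.31 and 3.62 ± 0.26 log2 units, and Plec (plectin) by 1.41 ± 0.10 and 1.29 ± 0.08. Urothelial markers, some of them basal keratins of cells rich in hemidesmosomes, summed to 17.5 to 40.6 scaled CPM in day 0 libraries and 54.6 to 252 in day 5 ones, and their part in this was not tested.

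The intracellular adhesion complex was divided. Of 31 tested genes 16 rose and 4 fell in wild type and 15 rose and 4 fell in knockout, with medians of 0.38 and 0.22. Beside this, 24.5% of all tested genes were higher and 22.6% lower in wild type, and 29.4% and 25.4% in knockout. Actn1 (alpha-actinin, an actin crosslinker at adhesions) rose by 2.26 ± 0.10 and 2.29 ± 0.09 log2 units, Tgfb1i1 (the adaptor Hic-5) by 1.78 ± 0.15 and 1.71 ± 0.12 and Tns3 (tensin) by 0.78 ± 0.09 and 0.79 ± 0.07. Of its paralogs, Tns1 and Tns2 went the other way in wild type, with −0.66 ± 0.18 (limma adjusted p = 0.00779) and −0.65 ± 0.14 (adjusted p = 0.001539), and did not pass in knockout (−0.30 and −0.10). The low-level paralog Tns4 had a higher mean at day 5, with 0.97 and 4.02 scaled CPM in wild type and 0.68 and 2.45 in knockout (day 0, then day 5). Its test result is not reported here. Tln1 (talin), which binds the beta tail, was at −0.00 ± 0.10 and −0.09 ± 0.08 (limma adjusted p = 0.9939 and 0.3705), while its paralog Tln2 fell, with −1.71 ± 0.23 and −0.97 ± 0.19. The kindlins differed from each other: the epithelial Fermt1 rose by 0.74 ± 0.13 and 0.63 ± 0.11, the leukocyte Fermt3 rose by 2.10 ± 0.21 and 1.96 ± 0.18, and Fermt2 was at −0.08 and 0.16 (adjusted p = 0.6591 and 0.2407). Ilk, the integrin-linked kinase, had 0 to 8 reads per library and was not tested; its exons share 2106 bases with Taf10 and 355 with Rrp8 on the opposite strand.

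Of 5 genes for inhibitors of integrin activation, 2 rose and 1 fell in each genotype. Flna (filamin, which competes with talin) rose by 1.86 ± 0.13 and 1.96 ± 0.11 log2 units and Dok1 by 2.05 ± 0.19 and 1.84 ± 0.16. Fabp3, listed among them, was the one that fell (−1.67 ± 0.26 and −1.25 ± 0.22), and it is known mainly as a fatty acid binding protein.

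On the TGF-beta side, served by Itgb6 and Itgb8, 8 of 10 genes of the latent complex and receptors rose and 0 fell in each genotype (medians 1.42 and 1.03). Tgfb1 rose by 1.86 ± 0.16 and 1.48 ± 0.13 log2 units, its receptor Tgfbr2 by 1.29 ± 0.13 and 0.91 ± 0.11, and the anchoring proteins Lrrc32 by 1.55 ± 0.16 and 1.03 ± 0.13 and Nrros by 1.88 ± 0.20 and 1.67 ± 0.17. Of 10 TGF-beta response genes, 9 rose and 0 fell in each genotype (medians 2.79 and 2.79). Timp1, a protease inhibitor, rose by 6.71 ± 0.49 and 5.49 ± 0.41, Ltbp2 by 4.36 ± 0.33 and 3.88 ± 0.28 and Tgfbi by 2.56 ± 0.18 and 2.25 ± 0.15. These stand beside 0.38 and 0.36 for Itgb6, and −0.40 and −0.03 for Itgb8, which did not pass (0.02 and 0.43 with library size scaling only).

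**Figure D4:**
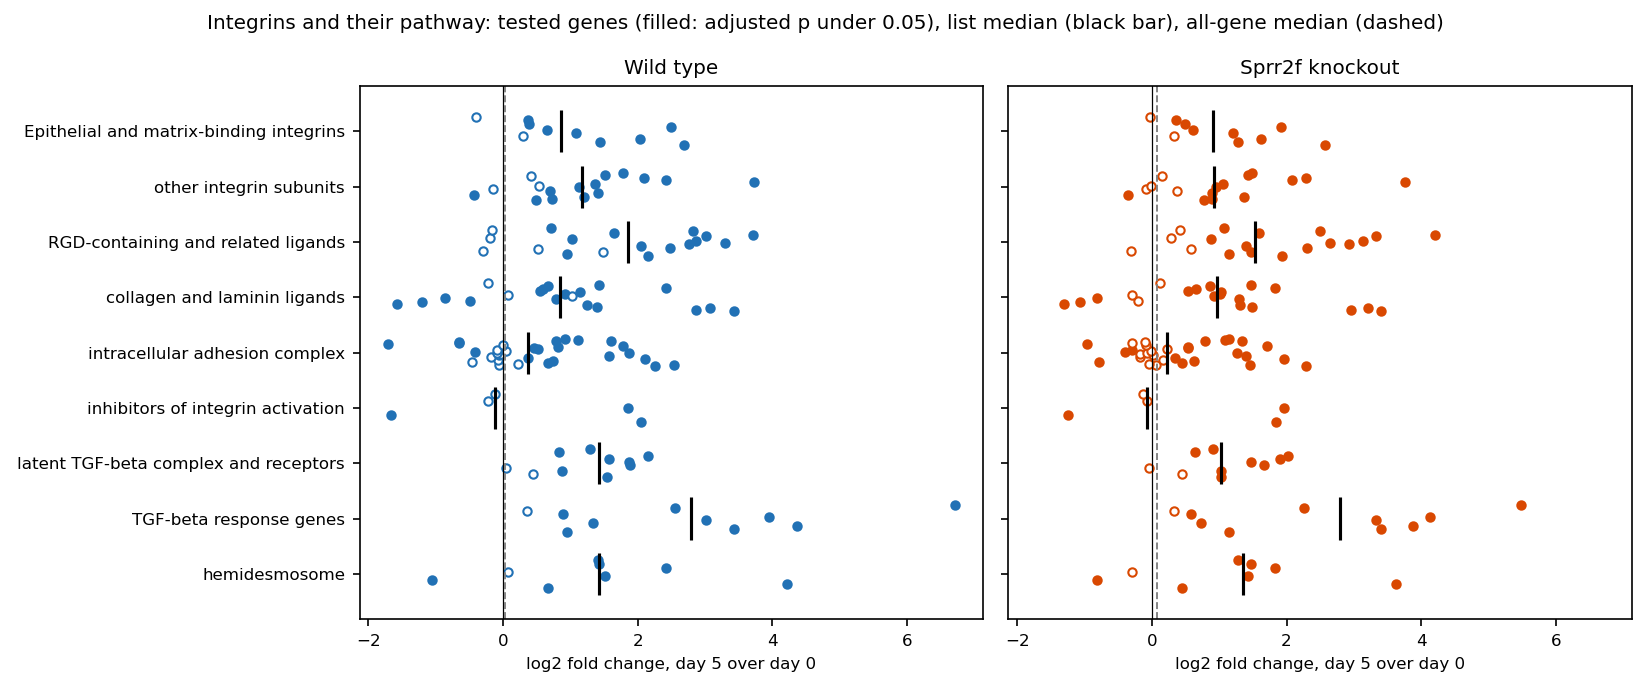
Log2 fold change, day 5 over day 0, of each tested gene in the integrin, ligand, adhesion and TGF-beta lists, for wild type (left) and knockout (right); filled points passed at an adjusted p of 0.05, black bars are list medians and the dashed line is the median of all tested genes. List medians in wild type run from −0.11 for the inhibitors to 2.79 for the TGF-beta response genes, with the 10 members at 0.87.

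None of these pathway lists held a gene called for genotype at day 0, for genotype at day 5 or for the interaction by limma. At day 5 and an unadjusted p under 0.05, 3 of 8 hemidesmosome genes and 1 of 16 other integrins were lower in knockout and 0 higher, where 2.08% of all tested genes were lower at that threshold. Itgb4 (unadjusted p = 0.0398) belongs to both lists and is counted in each. The corresponding count for the adhesion complex was 1 higher and 2 lower of 31, and for the RGD ligands 0 of 18. In any 1 of the 8 lists, of 5 to 31 tested genes, unadjusted counts were at most 1 higher and 3 lower for genotype at day 0. For the interaction they were at most 2 higher and 2 lower. The 3 lower at day 0 were of the 31 adhesion genes. Over all tested genes, 15% had an unadjusted p under 0.05 at day 0 (6.67% lower) and 7.59% for the interaction (3.66% lower).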

How the data were processed

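RNA-seq was made from 12 left kidney samples with 50-base reads. Per the submitters' processing notes, STAR, SAMtools and HTSeq were used with GRCm38.p6; versions and the strand setting are not given in the sources used here. The deposited values are CPM, by which the authors divided each library by its total. Dividing each column by its smallest step gave whole reads for 100% of the 665652 values (tolerance 0.001). Identifiers matched GENCODE M21 for 55230 of 55471 genes; 241 did not match.

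Genes were kept by filterByExpr (minimum count 10, total 15), and log2(CPM / TMM factor + 0.5) was fitted with limma 3.58.1 (empirical Bayes with trend, R 4.3.3) over all 12 libraries in 4 groups. p-values were adjusted by Benjamini-Hochberg over 18093 genes and called at 0.05. On the recovered reads, edgeR 4.0.16 called 8 members higher in each genotype, and DESeq2 1.42.0 called 7 and 8. Per-length values use the union of exons. Shares were tested by exact permutation of day within genotype, two-sided, adjusted over the 5 genes of a set. Figures were drawn with matplotlib 3.10.9.

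The members and lists were chosen with earlier results of these data known. Named genes are all 10 members and up to 4 called genes per list with the smallest adjusted p in wild type. The direct partners Itgb4, Tgfb1, Tln1, Fermt1 and Fermt2 and the 2 nearest genes of each called member are also named. Itga1, Itga2b, Vtn, Ilk, Gm13684, Tns1, Tns2, Tns4, Tln2 and the platelet genes were added after their values were seen. They were added as partners, family members, ligands, paralogs, markers or overlapping genes. Some genes that this rule names are not reported here. Beta subunit protein tails were planned and are not analysed here. Alternatives covered the amount added before the log, the filter, the scaling, edgeR, DESeq2, voom, a term for the Y-linked or Xist pattern, the compared groups alone, exon length, and each library left out. The statistics were tested on simulated data.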

Additional observations from a re-analysis of the deposited data

Results flagged for a closer look

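The share of Itgb6 in the 5 beta transcripts was 11.3% in knockout day 0 replicate 4, apart from the other 3 libraries of that group, which lay at 10.2 to 10.3%; the gap was 0.898 of the group's range. This was 1 of 20 groups looked at for such a library, and chance marks about 1 in 20. The cause was not tested.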

How the results depend on the processing

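No paired analysis was possible because the labels give no replicate number shared between groups. The counts of members called stayed within 1.5 times the main count in 164 recounts and not in 3; the number lower in wild type was 1 in place of 0 with DESeq2 and ranged from 0 to 1 when 1 library was left out, and the number called for genotype at day 5 was 1 with DESeq2 (Itga3). Scaling by library size only called 9 members higher in wild type and 10 in knockout. Of single-member obstruction values, 445 kept direction and call, 19 lost the call, 10 gained it and 6 changed sign; Itga2, Itga3, Itga5, Itgav, Itgb1 and Itgb3 kept theirs throughout, and the calls of Itgb5 and Itgb6 in wild type were also lost with no filter (adjusted p = 0.07092 and 0.08735). Of list counts, 741 stayed within 1.5 times and 27 did not.

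Signs that changed in log2 values were these. For obstruction, Itgb8 was 0.023 in wild type and 0.425 in knockout with library size only and 0.011 in knockout with upper-quartile factors; with 1 library left out it ran from −0.101 to 0.038 in knockout, and Itga6 ran from −0.027 to 0.603 in wild type. For genotype, none of the values that changed sign was called. With the Y-linked or Xist term, the day 0 differences were −0.11 for Itgb3, 0.026 for Itgb5 and −0.026 for Itga5, and the interactions 0.01 for Itgb1, 0.081 for Itga2 and −0.17 for Itga6. With library size only, Itgb5 at day 5 was −0.013, Itgb6 at day 0 was 0 and its interaction 0.015. The interaction was 0.01 for Itgb6 and 0.063 for Itga2 with edgeR, 0.047 for Itga2 with DESeq2 and −0.003 for Itga6 with upper-quartile factors.

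With 1 library left out, day 0 differences ran from −0.10 to 0.26 for Itgb6, −0.48 to 0.22 for Itgb8, −0.48 to 0.26 for Itga2 and −0.55 to 0.078 for Itga6. Day 5 differences ran from −0.30 to 0.025 for Itgav, −0.09 to 0.19 for Itgb5, −0.036 to 0.20 for Itgb6 and −0.56 to 0.17 for Itga2. Interactions ran from −0.073 to 0.27 for Itgav, −0.11 to 0.02 for Itgb1, −0.005 to 0.28 for Itgb5, −0.22 to 0.15 for Itgb6, −0.50 to 0.28 for Itga2 and −0.31 to 0.33 for Itga6. Shares, in points, ran from 3.13 to 6.05 for Itgb1, −2.36 to 0.194 for Itgb5 and 1.51 to 3.75 for Itgav; with no division by length Itgb5 was 0.243 and Itgav 5.56, and with the longest transcript Itgav was 5.52. The cause was not tested, apart from fewer samples in the fits that left 1 out. At day 0 depth limits Itga2, with 9 to 22 reads per library.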
